A study of Mus musculus with 8 samples.

Results

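Of 94048 regions of open chromatin found in mouse embryonic stem cells, 1601 were present in 3 of 4 lists of peaks and absent from the list of cells that lack 3 linker histone genes, those for H1.2, H1.3 and H1.4. The assay was ATAC-seq, where a transposase inserts sequencing adapters into DNA that is not packed away. The 4 groups were H1 triple-knockout cells (H1.2-/-H1.3-/-H1.4-/-) and H1 wild-type cells, both obtained from an earlier publication, and v6.5 cells depleted of Ubc9 by 72 hours of doxycycline (TET-OFF) and their isogenic Ubc9-control cells. The medium was 2i/LIF, which holds stem cells in a naive state, over 4 passages in every group. Each group had 2 replicates, and the authors made 1 list from both, so a difference between lists has no replicate spread behind it and was not tested. The labels do not say whether the knockout line is 1 clone, so line and genotype cannot be told apart within the H1 pair. The Ubc9 and H1 pairs are different lines, so line and genotype cannot be told apart between the pairs either.

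Overlapping intervals of the 4 lists on chromosomes 1 to 19 and X were merged into the 94048 union regions, and a list held a region when it overlapped it by at least 1 bp. The 1601 were held by the Ubc9-depleted, Ubc9-control and H1 wild-type lists and not by the H1 triple-knockout list, and are called knockout-missing regions here. They made up 7.21% of the 22191 regions held by the other 3 lists. The mirror set, missing only in H1 wild type, held 1846 of 22436 regions, or 8.23%. The share of 7.21% follows from how the regions were chosen and is no finding. No knockout-missing region had a knockout interval within 20 bp, the nearest lying 42 bp away, and 3 regions just across the threshold had under 20 bp of knockout interval in them, with wild-type scores of 85.7, 165 and 181.

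Linker histone H1 binds the nucleosome where DNA enters and leaves it and helps fold the nucleosome fibre. Stem cells carry several H1 variants, of which H1.2, H1.3 and H1.4 are common somatic forms. Ubc9 is the enzyme that conjugates the small protein SUMO to its targets, H1 among them. At the targeted genes, intervals covered 0 bp of H1f2 in knockout cells and 725 bp in wild-type cells, and 0 bp and 242 bp of H1f3. At H1f4 they covered 20 bp and 38 bp, a small difference. Of 9 stem cell marker genes, 7 had a region within 1000 bp of an annotated end in knockout cells and 7 in wild-type cells, against 5 in Ubc9-depleted and 6 in Ubc9-control cells, and Pou5f1 and Esrrb had none in any list. Of 7 fibroblast and feeder cell genes, each list had such a region at 1.

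Sequence was read only in RefSeq promoter windows, which 377 of the 1601 regions (23.5%) overlapped. The promoters below lay whole inside knockout-missing regions and are examples of such windows only. They were chosen from the highest-scoring genes named further on, with Hoxa13 added for its cluster. Each is the RefSeq window of GRCm38.p6 (the coordinates of mm10) from 250 bases before to 50 bases after an annotated start, read 5′ to 3′ on the gene's own strand. Capitals mark matches on either strand to 9 short motifs: CCAAT (bound by NF-Y), GGGCGG (Sp and Klf factors), CCGGAAG (ETS factors), TGACGTCA (CREB factors), ATTTGCAT (octamer-binding factors), TATAAA (the box of some core promoters), CACGTG (E-box factors), CCATNTT (YY1) and the motif of NRF1, which none of these windows holds. Neighbouring matches can touch or overlap, as 2 of the 3 GGGCGG copies do in Lsm3.
Snrpg promoter: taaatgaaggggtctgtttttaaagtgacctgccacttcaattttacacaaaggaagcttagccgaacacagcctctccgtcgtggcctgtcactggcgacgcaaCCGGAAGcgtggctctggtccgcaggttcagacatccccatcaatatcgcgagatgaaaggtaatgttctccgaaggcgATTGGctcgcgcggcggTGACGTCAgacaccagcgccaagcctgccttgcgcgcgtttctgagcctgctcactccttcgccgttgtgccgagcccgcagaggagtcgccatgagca
Lsm3 promoter: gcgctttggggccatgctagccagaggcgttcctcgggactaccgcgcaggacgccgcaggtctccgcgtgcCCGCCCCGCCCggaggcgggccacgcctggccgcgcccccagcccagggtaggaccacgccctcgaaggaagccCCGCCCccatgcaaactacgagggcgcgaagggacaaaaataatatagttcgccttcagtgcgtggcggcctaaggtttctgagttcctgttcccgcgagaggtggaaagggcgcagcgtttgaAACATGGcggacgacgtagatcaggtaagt
Nup205 promoter: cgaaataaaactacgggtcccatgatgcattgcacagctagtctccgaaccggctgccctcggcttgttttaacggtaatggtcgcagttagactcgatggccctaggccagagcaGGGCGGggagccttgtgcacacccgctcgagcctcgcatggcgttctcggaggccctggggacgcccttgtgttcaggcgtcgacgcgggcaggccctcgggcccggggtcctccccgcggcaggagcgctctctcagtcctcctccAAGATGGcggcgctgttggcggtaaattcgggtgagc
Prmt7 promoter: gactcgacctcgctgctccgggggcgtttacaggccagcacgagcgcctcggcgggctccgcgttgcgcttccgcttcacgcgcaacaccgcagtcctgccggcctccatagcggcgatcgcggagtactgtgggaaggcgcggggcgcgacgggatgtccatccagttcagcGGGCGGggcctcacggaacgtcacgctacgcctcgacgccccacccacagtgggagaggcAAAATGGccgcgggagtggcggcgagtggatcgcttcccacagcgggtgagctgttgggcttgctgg
Hoxa13 promoter: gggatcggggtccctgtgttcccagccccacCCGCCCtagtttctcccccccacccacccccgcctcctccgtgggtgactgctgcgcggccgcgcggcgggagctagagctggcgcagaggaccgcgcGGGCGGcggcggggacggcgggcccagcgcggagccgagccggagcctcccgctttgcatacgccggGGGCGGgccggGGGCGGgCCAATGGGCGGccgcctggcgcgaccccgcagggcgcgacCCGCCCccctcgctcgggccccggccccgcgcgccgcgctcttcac
Ptpmt1 promoter: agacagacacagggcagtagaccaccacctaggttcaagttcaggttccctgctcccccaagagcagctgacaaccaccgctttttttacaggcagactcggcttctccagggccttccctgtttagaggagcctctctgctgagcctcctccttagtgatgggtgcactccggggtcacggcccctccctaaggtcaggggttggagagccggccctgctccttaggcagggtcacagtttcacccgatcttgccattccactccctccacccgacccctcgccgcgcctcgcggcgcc
Snrpg (chr6:86371290-86371589, plus strand) encodes a core protein of spliceosomal small nuclear ribonucleoproteins, Lsm3 (chr6:91515785-91516084, plus) a protein of the ring that binds U6 RNA, and Nup205 (chr6:35177366-35177665, plus) a scaffold protein of the nuclear pore. Prmt7 (chr8:106210804-106211103, plus) encodes an arginine methyltransferase, Hoxa13 (chr6:52260831-52261130, minus) a body-axis regulator, and Ptpmt1 (chr2:90918001-90918300, minus) a mitochondrial phosphatase. Their CpG counts, against a median of 7 over all windows of the table, ran from 13 in Ptpmt1, which holds none of the motifs, over 26 in Snrpg, 28 in Nup205, 32 in Lsm3 and 39 in Prmt7 to 45 in Hoxa13, which holds GGGCGG 6 times.

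Knockout-missing regions scored lower than regions in all 4 lists, and less far below the typical peak of each list. The score is the authors' own, 1 per deposited interval, read as minus 10 times log10 of the peak caller's p. It ranks peaks within a list only. The narrowest interval was 105 bp in the depleted and 110 bp in the control list, but 1 bp in each H1 list. Median interval width was 431 and 367 bp in these Ubc9 lists, against 259 bp in knockout and 273 bp in wild-type cells. Ubc9 scores can also carry more decimals than wild-type scores, so an interval or score may not mean the same in the Ubc9 and H1 lists. In the Ubc9-depleted list the median score of the 1601 was 106 (quartiles 79.99 and 162), against 183 (111 and 331) for the 20590 regions in all 4 lists. In the Ubc9-control list the medians were 114 (86.7 and 150) and 208 (139 and 325), and in the wild-type list 108 (79.8 and 152) and 226 (144 and 354). A score under 100 was held by 45.4% of the 1601 in the depleted list, 39.3% in the control list and 43.7% in the wild-type list, against 19.9%, 9.62% and 10.9% of the regions in all 4 lists. Over all intervals of a list the median score was 128 in depleted, 126 in control and 132 in wild-type cells. The mirror set looked alike in the Ubc9 lists, with medians of 116 in depleted and 109 in control cells.

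**Figure D1:**
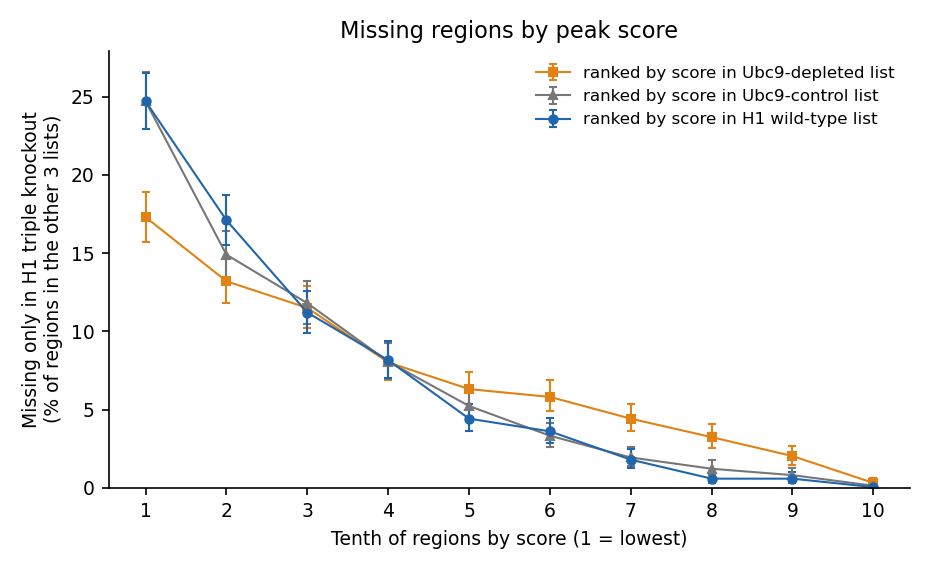
Share of regions missing only in the H1 triple knockout (y axis, % of the regions held by the other 3 lists) in 10 bands of equal size by score (x axis, 1 is the lowest), ranked in each of the 3 lists; bars are exact 95% binomial intervals for counting error. In the highest band the share is 0.315% in the depleted, 0.135% in the control and 0.0451% in the wild-type ranking, the lowest value of each.

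The share missing was lower the higher the score. In the Ubc9-control list, which is not of the H1 pair, the regions were put in 10 bands of equal size. The lowest band had 24.7% knockout-missing regions (interval 22.9 to 26.6), the fifth 5.23% and the highest 0.135%, or 3 of 2219 regions. In the depleted list the lowest and highest bands had 17.3% and 0.315%. The mirror set had 29.4% in the lowest and 0.0446% in the highest band of the control list. Every list ends at a score of about 50, so score and presence in a list are linked. The fall is not particular to the knockout. With a score of at least 100 in all 3 lists, 391 of 14848 regions were knockout-missing (2.63%), with at least 200 there were 20 of 6483 (0.308%), and with at least 300 there were 0 of 3277, which allows a share of up to 0.113%.

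In width the regions lay between those in all 4 lists and the other sets missing from 1 list. Their union width had a median of 512 bp (quartiles 368 and 791, range 160 to 3131), against 619 bp (434 and 899) for regions in all 4 lists. The median was 442 bp for the mirror set, 360 bp for regions missing only in Ubc9-depleted cells and 448 bp for those missing only in Ubc9-control cells. These sets merge different lists, and the Ubc9 lists had the wider intervals. The order of union widths is therefore partly set by the rule. Within the Ubc9 pair, intervals in them covered a median of 413 bp in depleted and 406 bp in control cells, and the depleted interval was the wider one in 53.1% of the 1601, close to the 52.2% of regions in all 4 lists. In the mirror set it was the wider one in 63.7%. Together the 1601 covered 0.983 Mb.

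**Figure D2:**
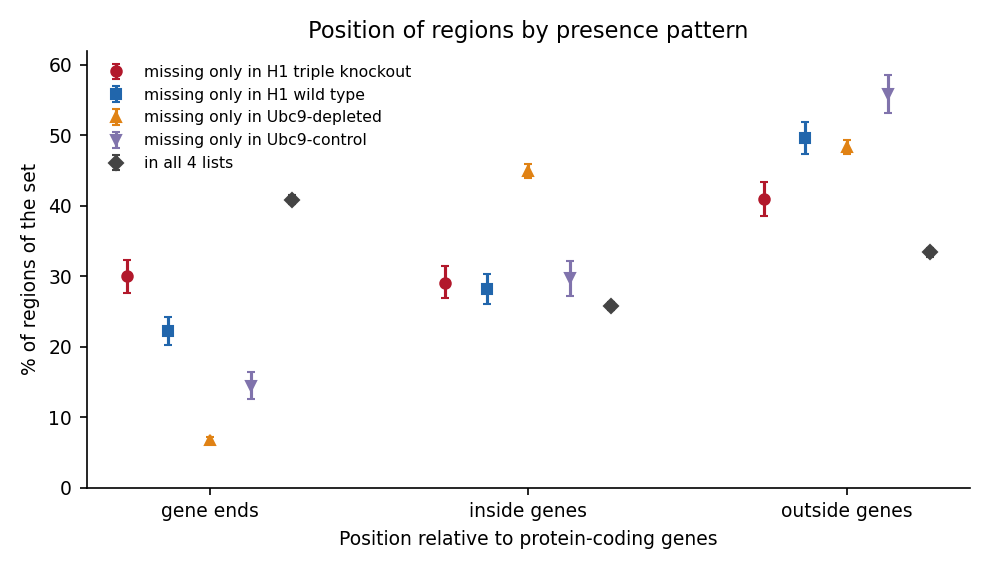
Position of regions (x axis) as the percent of each set (y axis), for the 4 sets missing from 1 list and the regions in all 4 lists; bars are exact 95% binomial intervals. Knockout-missing regions lie at gene ends in 30.0%, between regions in all 4 lists at 40.8% and the other sets missing from 1 list at 22.2% or less.

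Position was not used to choose the regions. Gene ends, the 1000 bp on each side of either annotated end of a protein-coding gene, held 480 of the 1601, or 30.0% (27.7 to 32.3), while 29.1% lay inside genes and 40.9% outside. Regions in all 4 lists were at gene ends in 40.8% (40.2 to 41.5). The mirror set had 22.2% there (20.3 to 24.2), and the regions missing only in Ubc9-depleted cells, 31.2% of those in the other 3 lists, had 6.75%, and the regions missing only in Ubc9-control cells 14.4%. The higher share of knockout-missing than wild-type-missing regions at gene ends also held with a score of at least 100 in all 3 lists, 43.0% against 23.8%. Among genes with a gene-end region in the set and 1 strand in the promoter table, the region touched the start only in 344, the other end only in 50 and both in 11, and 137 genes had no strand there. The split was not counted for the other sets, so it is no finding about knockout-missing regions.

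Score and position went together. Of gene-end regions with a control score under 100, 25.4% were knockout-missing (22.1 to 28.8), a share close to the 22.4% inside and 24.6% outside genes. With a control score of 200 or more, gene ends had 0.717% (0.508 to 0.982), against 1.79% (1.30 to 2.40) inside and 2.44% (1.94 to 3.03) outside genes. The gene-end shares missing only in wild type were 26.6% (23.3 to 30.0) with a control score under 100, 7.59% (6.64 to 8.62) at 100 to 200, where 9.30% (8.27 to 10.4) were knockout-missing, and 0.209% (0.104 to 0.373) at 200 or more. The knockout share was thus the lower one in the lowest band, within overlapping intervals, and the higher one in the highest.

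The share missing also differed between chromosomes. On chromosome 6 the knockout list lacked 166 of 1346 regions held by the other 3 lists, or 12.3% (10.6 to 14.2), and on chromosome 8 it lacked 151 of 1310, or 11.5% (9.85 to 13.4). On chromosome 3 it lacked 35 of 1323, or 2.65% (1.85 to 3.66). The other 16 autosomes ranged over 4.89% to 8.67% with a median of 6.61%, and X had 8.24%. The wild-type list mirrored this, lacking 5.83% on chromosome 6, 4.61% on chromosome 8 and 10.9% on chromosome 3, against 6.35% to 10.0% on the other autosomes and 5.65% (4.03 to 7.67) on X. Chromosomes 6 and 8 together held 317 of the 1601, or 19.8%, and 2656 of the 22191 regions held by the other 3 lists. That the H1 pair is uneven on these 3 chromosomes was known from earlier results of these data, and copy number, strain and clone were not tested.

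**Figure D3:**
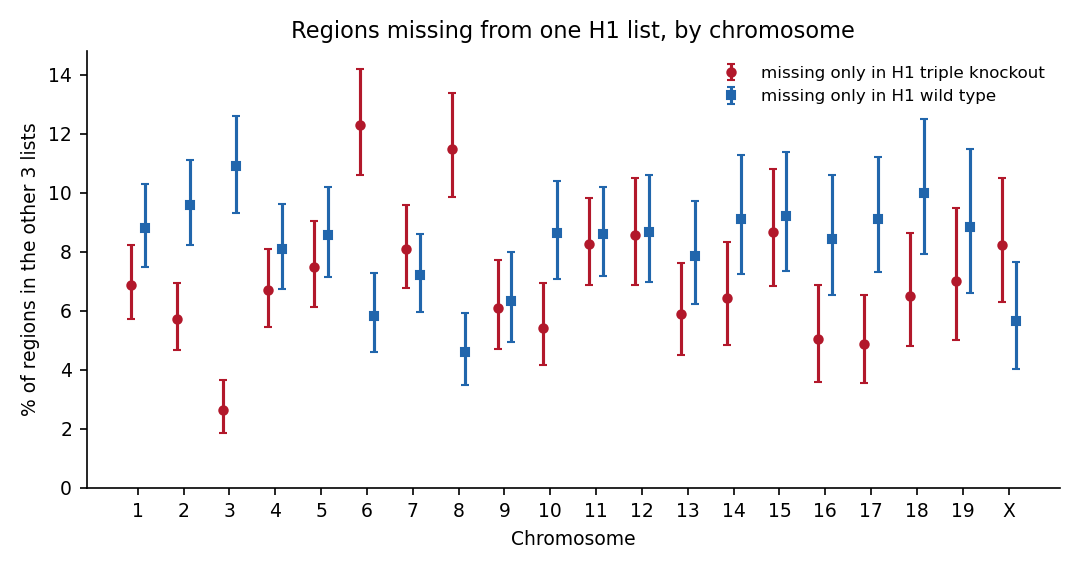
Percent of the regions held by the other 3 lists (y axis) that are missing only in the H1 triple knockout and only in H1 wild type, by chromosome (x axis), with exact 95% binomial intervals. Chromosomes 6 and 8 are highest for the knockout, at 12.3% and 11.5%, and chromosome 3 is lowest, at 2.65%.

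The pattern held at equal scores in a list outside the H1 pair. With a control score of 100 to 200, the knockout lacked 18.9% of regions on chromosome 6 (15.6 to 22.6), 16.9% on chromosome 8 (13.7 to 20.5) and 2.73% on chromosome 3 (1.46 to 4.62), against 8.55% on the other autosomes (7.90 to 9.23). X had 13.8% (9.45 to 19.2) in this band, an interval also apart from that of the other autosomes. With a control score of 200 or more the shares were 3.26%, 1.71% and 0.850%, against 1.37%, where of these 3 chromosomes only 6 (2.08 to 4.86) had an interval apart from that of the other autosomes (1.14 to 1.64). The knockout-missing regions of chromosome 6 also had the higher wild-type scores, with a median of 135, against 122 on chromosome 8, 95.6 on chromosome 3 and 103 on the other autosomes. Their gene-end shares were 34.9% on chromosome 6, 34.4% on chromosome 8, 11.4% on chromosome 3, where this is 4 of 35, and 29.5% on the other autosomes.

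**Figure D4:**
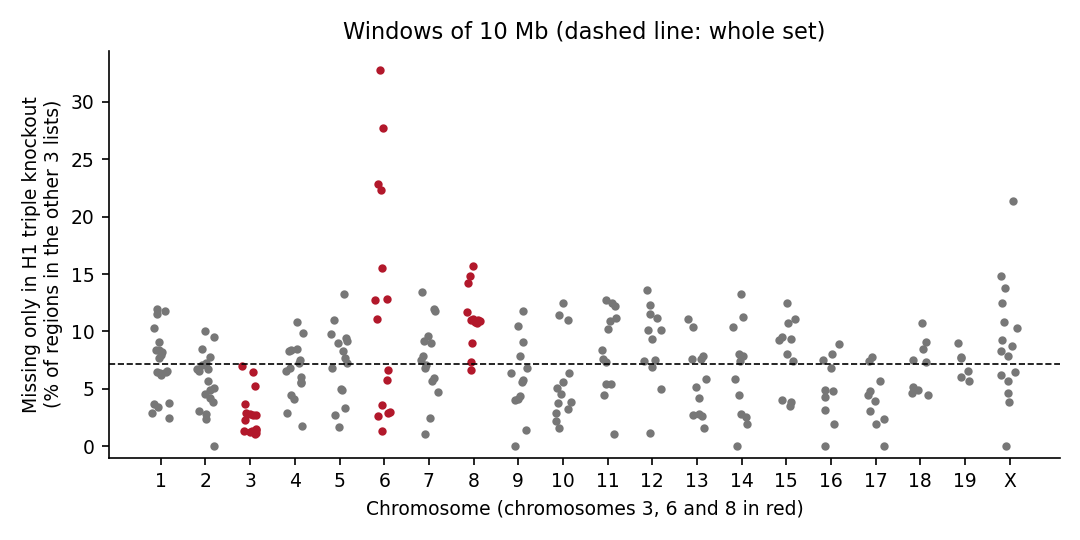
Percent of the regions held by the other 3 lists that are missing only in the H1 triple knockout (y axis) in windows of 10 Mb with at least 20 such regions, by chromosome (x axis), 1 point per window; the dashed line is 7.21%. All 16 windows of chromosome 3 lie below the line, 12 of 13 of chromosome 8 above it, and those of chromosome 6 spread from 1.37% to 32.8%.

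The 2 chromosomes with high shares differed in pattern. On chromosome 8 the excess ran along its length, with windows of 10 Mb between 6.67% and 15.7% and 12 of 13 above the overall 7.21%. On chromosome 6 it came in patches: 32.8% between 80 and 90 Mb, 27.7% between 90 and 100 Mb, 22.8% between 50 and 60 Mb and 22.3% between 30 and 40 Mb, beside 1.37% between 20 and 30 Mb and 2.94% between 40 and 50 Mb. The wild-type list had patches there too: between 60 and 70 Mb the knockout lacked 15.5% and the wild type 18.3%, and between 70 and 80 Mb the knockout lacked 12.7% and the wild type 23.8%. All 16 windows of chromosome 3 were below 7.21%. From 80 to 100 Mb on chromosome 6 the knockout lacked 64 of 208 regions, or 30.8% (24.6 to 37.5), and the wild-type list 3 of 147, or 2.04% (0.423 to 5.85). There the knockout list held 275 intervals in all and the wild-type list 596, while the depleted and control lists held 385 and 394.

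In that stretch the missing regions included gene ends, not all of them at a promoter window of the gene. Of its 89 gene-end regions held by the other 3 lists, 29.2% were missing, and 29 genes had one. The share missing was 8.49% of gene-end regions on the rest of chromosome 6 and 5.4% of those on all chromosomes. Besides Snrpg, Lsm3 and its divergent neighbour Xpc, the DNA-damage sensor of nucleotide excision repair, the genes were chosen after their values were seen: Tgfa, an EGF-receptor ligand, scored 61.3 in depleted, 91.4 in control and 253 in wild-type cells. Adamts9, a secreted metalloprotease, scored 239, 193 and 252 in the same order. Mrps25, a mitochondrial ribosomal protein, scored 97.4, 170 and 169, and Pcgf1, a Polycomb group protein, 448, 93.3 and 104.

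The longest runs of neighbours missing together lay mostly on chromosome 6. Taking the regions held by the other 3 lists in order, 1291 of the 1601 stood alone, and 120 runs of 2, 16 of 3, 3 of 4 and 2 of 5 made up the rest. Neighbouring knockout-missing regions were a median of 786986 bp apart, and 36 of the 1581 gaps were under 10 kb. Of the 5 runs of 4 or 5, 4 were on chromosome 6. One of 5 regions covered 132.7 kb (chr6:86684280-86816951) over Snrnp27, a splicing factor, Gmcl1 and Anxa4, an annexin, with wild-type scores from 82.8 to 210. The other run of 5 spanned 531.2 kb (chr6:38695451-39226605) and included one at an end of Hipk2, a kinase gene whose span overlaps there with that of Tbxas1, and one at an end of Kdm7a, a histone demethylase gene. These 2 scored 392 and 469 in depleted, 184 and 198 in control and 188 and 153 in wild-type cells. The nearest deposited knockout interval was 145 kb (145002 bp) and 141 kb (140762 bp) away. Between the knockout intervals on both sides, however, 6 peak numbers of the knockout list were skipped, as described further on. A run of 4 at Slc41a3 and Iqsec1 (chr6:90604438-90737761) had wild-type scores of 160, 343, 146 and 270. The run off chromosome 6, at Cox6a1 and Msi1 on chromosome 5 (chr5:115348585-115404871), scored from 67.6 to 144 in wild-type cells.

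The remaining run lay in the Hoxa cluster, the Hox genes that pattern the body axis and limbs. Its 4 regions, between 52211594 and 52306582 on chromosome 6, were 1 inside the annotated span of Hoxa3, 1 lying 857 bp outside Hoxa9, 1 at the start of Hoxa13 and 1 lying 6915 bp from Evx1, a homeobox gene beside the cluster. In depleted cells they scored 76.6, 124, 141 and 103, in control cells 125, 90.9, 121 and 195, and in wild-type cells 154, 163, 144 and 491. The Evx1-side region had the highest score of the 4 in wild-type and in control cells, but not in depleted cells. The Hoxb and Hoxd clusters had 1 knockout-missing region each and Hoxc none, with 4 of its 5 regions in all 4 lists. Hoxd also had 1 region missing only in wild type.

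Regions were also counted per gene, from 10 kb before it to 10 kb after it. Gse1 (chromosome 8) had the most, 5 of 12 regions held by the other 3 lists. Msi1, an RNA-binding protein of neural progenitors, had 4 of 6. Cald1, an actin-binding protein, and Anxa4 had 3 of 3, Iqsec1, an exchange factor for ARF GTPases, and Nacc1 3 of 4, Trak1 3 of 4, Mast1 and Sfi1 3 of 6, and AI593442 2 of 2. Many genes tied at 2 of 2, and AI593442 was taken as the first of them in alphabetical order. Regions missing only in wild type numbered 3 at Trak1, as many as were knockout-missing, 1 at Gse1 and 0 at the other 8 genes. The knockout list held 0 regions at Anxa4 and 11 at Trak1, so a gene with several missing regions could keep others. Of these 10 genes, Anxa4, Cald1 and Iqsec1 are on chromosome 6 and Gse1, Nacc1 and Mast1 on chromosome 8.

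Of the 9932 protein-coding genes with a gene-end region held by the other 3 lists, 542 (5.46%) had one that was knockout-missing, and 441 of these had no knockout interval at either end. The mirror count was 459 of 9868 genes (4.65%). The highest wild-type score among the 441 was at Frmd4b, a FERM-domain protein on chromosome 6 (chr6:97616819-97617849), where the region scored 111 in depleted, 128 in control and 423 in wild-type cells. Prr36 on chromosome 8 followed with 65.7, 125 and 323 (322.5), and Nup205 with 462, 232 and 314. Mgst1, a microsomal glutathione transferase, scored 72.8, 89.1 and 292. Prkch, a protein kinase C, and the predicted gene LOC115488016 share a region on chromosome 12 with 193, 208 and 286. These 5 regions had the nearest knockout interval between 2371 and 43044 bp away.

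Lrch2 (X) scored 229 in depleted, 143 in control and 285 in wild-type cells, and Ptpmt1 112, 119 and 283 (283.0). Lsm3 and Xpc share a region (chr6:91515494-91516406) that was strong in all 3 lists, with 410, 326 and 280 (279.7). Snrpg scored 199, 155 and 265 and Prmt7 338, 232 and 262. Of these 12 genes, 6 are on chromosome 6 and 2 on chromosome 8.

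None of the 8 regions with the highest wild-type score lay at the end of a coding gene. The top one (chrX:53716507-53717504), 7150 bp from Ct55, scored 165 in depleted, 273 in control and 547 in wild-type cells, and it holds the promoter window of the non-coding RNA AW822252. The next, on chromosome 1 (chr1:106816662-106817351), lay 19936 bp from Vps4b with 85.9, 389 and 518. One on chromosome 16 scored 93.7, 262 and 514, and one inside Aurkc, a meiotic kinase gene on chromosome 7, 117, 375 and 497. After the Evx1-side region came one on chromosome 18 with 79.99, 178 and 444, one inside Gprc5a on chromosome 6 with 66.2, 399 and 438, and one on chromosome 5, 419 kb (419444 bp) from Magi2, with 168, 489 and 430. The Gprc5a region had a knockout interval 931 bp away and that near Magi2 one 1733 bp away.

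Gene lists gave small counts, to be read against the 5.46% of all genes. Of 10 Hox genes with a gene-end region in the other 3 lists, 4 had a knockout-missing one (share interval 12.2% to 73.8%): Hoxa9, Hoxa13, Hoxb9 and Hoxd13. Hoxb9 scored 104 in depleted, 116 in control and 120 in wild-type cells and Hoxd13 201, 60.1 and 72.9. The mirror count was 0 of 6. Since the lists were written knowing that Hox genes differ in the H1 pair, this count is no independent evidence.

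Of 24 pluripotency genes, 2 had a knockout-missing region. Fgf4, the stem cell FGF, scored 63.9 in depleted, 125 in control and 167 in wild-type cells and kept a knockout interval at a gene end, and Tcl1, a co-activator of AKT, scored 77.2, 70.1 and 72.9. Lineage genes were few: 2 of 9 mesoderm and endoderm genes, Eomes (85.5, 60.7 and 75.8, with a knockout interval 154 bp away) and Hand2 (93.6, 90.2 and 67.7), 1 of 7 trophectoderm genes, again Eomes, 1 of 5 primitive endoderm genes, Cited1 (103, 130 and 76.2), and 1 of 16 neural genes, Tubb3 (98.6, 95.1 and 139). Of 24 lineage transcription factors typical of Polycomb targets only Hand2 had one, and 4 of 26 were missing in the mirror set. In the list of 2-cell embryo genes Zfp750 was 1 of 4 (144, 137 and 156).

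Among signalling genes, Ctnnb1, which encodes the Wnt effector β-catenin, was 1 of 23 Wnt genes and had high Ubc9 scores, 486 in depleted and 265 in control cells, beside 134 in wild-type cells. Bmp2 was 1 of 22 TGF-β and BMP genes (178, 137 and 108), Fgf4 and Fgf11 were 2 of 19 FGF genes, and the Fringe glycosyltransferases Rfng (250, 123 and 103) and Mfng (85.6, 89.7 and 76.3) 2 of 14 Notch genes. Imprinted genes gave 2 of 21, Herc3 (535, 446 and 200) and Igf2r (371, 177 and 96.9), Polycomb and Trithorax genes 2 of 25, Cbx6 (384, 175 and 135) and Pcgf1, p53 targets 1 of 15, Bbc3 (188, 124 and 85.3), and chromatin regulators 1 of 30, Smarcd1 (387, 105 and 89.5). The lists of 24 housekeeping, 15 SUMO pathway, 13 interferon-response, 7 germline, 5 primed-state, 4 linker histone and 2 fibroblast genes had 0. Counts of 0 among so few genes allow wide shares, up to 14.2% for the housekeeping list.

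The promoters in knockout-missing regions had the base composition of open promoters. The 460 RefSeq promoter windows that such regions overlapped had a median GC content of 65.3% (quartiles 58.3 and 71.7), 25 CpG and an observed over expected CpG ratio of 0.802. Windows in regions of all 4 lists (9971) had 62.3%, 23 and 0.798, and those of the mirror set (403) 62.7%, 23 and 0.805, against 53%, 7 and 0.386 for all 32585 windows of the table. The motif GGGCGG was in 68.9% (64.5 to 73.1), against 70.7% of windows in all 4 lists and 35.9% of all windows.

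The motif CCAAT was scarcer: 25.2% of the windows in knockout-missing regions held it (21.3 to 29.4), against 42.9% in regions of all 4 lists (42.0 to 43.9), 28.3% in the mirror set and 37.6% of all windows. In knockout-missing regions it was in 22.6% (16.1 to 30.3) with a control score under 100, in 27.4% (22.2 to 33.1) at 100 to 200 and in 20.5% (9.80 to 35.3) at 200 or more. In regions of all 4 lists the same bands had 25.6% (21.8 to 29.7), 34.2% (32.5 to 35.9) and 48.2% (47.0 to 49.5). The intervals of the 2 sets thus overlapped in the lower bands and lay apart in the highest, where 44 windows are knockout-missing. The 460 windows belong to 414 genes and 377 regions, and some share bases. They are therefore not independent, and these intervals may be too narrow. Wholly inside a region lay 280 of the 460 windows, against 7597 of 9971 in all 4 lists and 220 of 403 in the mirror set. A match can thus lie outside the region that overlaps its window. The other motifs were in 17.6% (CCGGAAG), 14.3% (CCATNTT), 10.9% (CACGTG), 6.30% (TATAAA), 3.70% (TGACGTCA) and 0.435% (ATTTGCAT) of the 460, beside 19.9%, 14.6%, 10.7%, 5.55%, 3.49% and 1.65% in regions of all 4 lists and 8.92%, 16.1%, 7.2%, 13.7%, 1.8% and 1.75% of all windows. The NRF1 motif was in 1.52% of the 460, 2.26% of windows in all 4 lists and 0.973% of all windows. A match describes letters in a window and shows no binding. Of 54 miRNA hairpins overlapped by regions of the other 3 lists, 3 were in knockout-missing regions: Mir8117, Mir7229 and Mir8109. Over all regions of the other 3 lists the share was 7.21%, so 3 of 54 is no finding about miRNAs.

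The peak numbers of the knockout list have gaps. Its intervals keep the peak caller's serial numbers, which rise along each chromosome, and 56420 distinct numbers were kept up to the number 77359 (72.9%). Where the intervals on both sides of a knockout-missing region have numbers that are not equal or consecutive, at least 1 number between them is not in the deposited list, and the position of such a peak is not given. This was so for 1284 of 1600 knockout-missing regions, or 80.2% (78.2 to 82.2). It was so for 67.4% (65.4 to 69.3) of the regions held by both Ubc9 lists only, and for 65.9% (63.7 to 68.1) of the mirror set in the numbers of the wild-type list. Where the flanking intervals were under 20 kb apart, the shares were 69.1% (62.7 to 75), 45.3% (39.2 to 51.5) and 44.2% (37.8 to 50.7). Over 100 kb apart they were closer, at 85.0% (81.9 to 87.8), 78.6% (75.7 to 81.2) and 80.4% (77.2 to 83.4). There the intervals of the knockout-missing regions and the mirror set overlapped. Over all neighbouring numbered peaks of the knockout list, at any distance, the share was 26.2%.

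**Figure D5:**
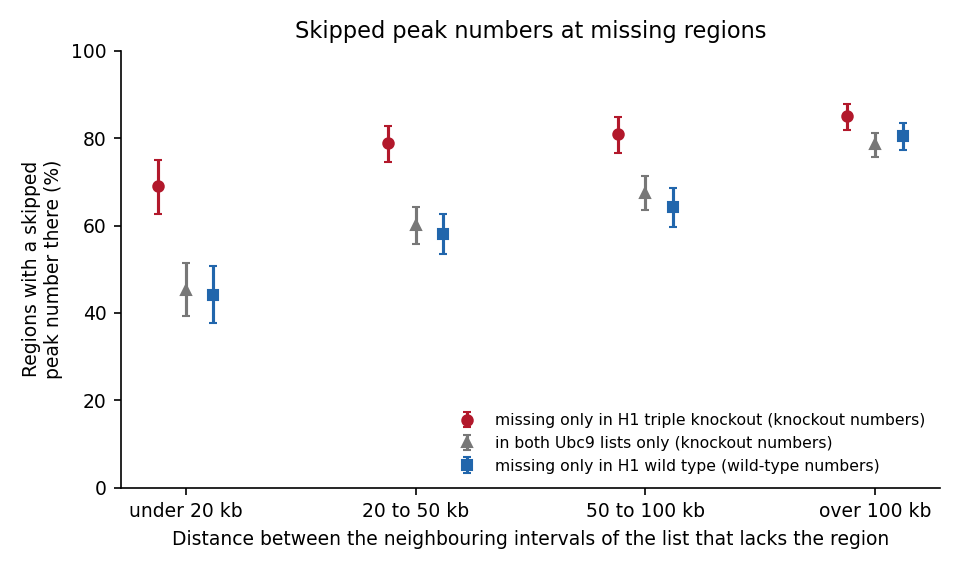
Percent of regions with at least 1 skipped peak number between the flanking intervals of the list that lacks them (y axis), by the distance between those intervals (x axis), with exact 95% binomial intervals. At under 20 kb the knockout-missing regions have 69.1%, the regions in both Ubc9 lists only 45.3% and the mirror set 44.2%. At over 100 kb these are 85.0%, 78.6% and 80.4%.

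How the authors combined replicates is unknown here, and whether a skipped number belongs to a peak at the region itself was not tested. The share varied little with strength, from 79.1% at wild-type scores under 100 to 78.6% at 200 or more. Chromosome 6 had 72.9%, chromosome 8 had 84.1% and chromosome 3 had 61.8% of 34 regions, with 75% in the stretch from 80 to 100 Mb of chromosome 6. No number was skipped at 316 regions, 19.7% of the set. Of them 45 lay on chromosome 6, 24 on chromosome 8 and 62 at gene ends (19.6%, against 17.2% for the mirror set chosen the same way), and 40 had a wild-type score of 200 or more. The 4 regions of the Hoxa run were among them, as was the top region near Ct55. The other long runs had skipped numbers, at most 2 at a region of the Snrnp27 run and 6 in the Hipk2 run. In the Slc41a3 run it was at most 8 and in the Cox6a1 run 3.

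The distance of knockout-missing regions to knockout intervals was close to that of the mirror set to wild-type intervals. The rule excludes overlap with a knockout interval, and distances from other positions were not computed. The median distance to the nearest was 13295 bp (quartiles 4978 and 33210), and 914 of the 1601 (57.1%) had none within 10 kb. For the mirror set and wild-type intervals the median was 12750 bp, with 57.6% beyond 10 kb. A knockout interval lay within 500 bp of 19 regions (1.19%).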

How the data were processed

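ATAC-seq peak lists of 4 groups were used, each made by the authors from 2 replicates, per the labels. Each reaction used 50000 cells and 12 PCR cycles, per the labels' protocols. The submitters' processing notes name MACS 1.4.2-1, a peak caller, Bowtie2 and Picard beside CASAVA 1.8.2, and the build mm10. Their settings, any shift of read positions and the merging of replicates are not given in the sources used here. The deposited score of each peak is the authors' value, lowest 50. The lists held 58039 intervals for H1 triple-knockout, 55489 for wild-type, 48730 for Ubc9-depleted and 46847 for control cells, of which 150, 232, 443 and 225 on other chromosomes or scaffolds were left out. Read depth is unknown.

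Union regions, overlaps and shares were computed with Python 3.11.15, pandas 2.3.3 and SciPy 1.17.1 and tested on simulated data. Intervals are exact (Clopper-Pearson) 95% binomial ones and cover counting error only. Genes were 21631 protein-coding genes of the RefSeq table for GRCm38.p6, and 751 entries of 23 gene lists matched it while 6 symbols did not. Members and lists were chosen with earlier results of these data known. Named were the targeted genes, the 10 genes with the most members, the 12 gene ends and 8 members with the highest wild-type score, up to 5 genes per list and the 5 longest runs; others were chosen after their values were seen. Alternatives changed the overlap, merging, score, width, list length, chromosomes and gene window.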

Additional observations from a re-analysis of the deposited data

How the results depend on the processing

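No paired analysis was possible because each list pools both replicates; for the same reason no replicate could be left out and no test was run. The number of knockout-missing regions stayed within 1.5 times 1601, from 1249 to 1928, under the alternatives for overlap, nearness, merging, width, list length and chromosomes, but was 391 (2.63% of the regions held by the other 3 lists) with a score of at least 100 in those 3 lists, 810 (5.46%) with that minimum in all 4 lists, and 316 without skipped knockout peak numbers, an alternative chosen after seeing the data. In that order the gene-end share was 43.0%, 41.4% and 19.6%, the share missing on chromosome 6 was 7.09%, 11.9% and 3.34%, on chromosome 8 it was 5.05%, 8.84% and 1.83%, on chromosome 3 it was 0.672%, 2.24% and 0.983%, the Hox count was 2 each, and the median wild-type score was 152.6, 153.1 and 103.3. With 25% of the region covered, gene ends had 36.2%, chromosome 6 14.7% and chromosome 8 13.6%; with equal list lengths, chromosomes 6, 8 and 3 had 15.3%, 14.5% and 4.19%. Without chromosomes 3, 6 and 8 the Hox count was 2 and the median score 103.3. Promoter windows in place of gene ends, also added later, held 23.5%, against 36.4% of regions in all 4 lists and 17.8% of the mirror set. Under each alternative run for both sets the gene-end share was below that of regions in all 4 lists, at the closest 36.2% against 40.1%. The cause of these shifts was not tested. The depth behind the lists is unknown.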
